A study of Mus musculus with 8 samples.

Results

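The IL-6 and oncostatin M cytokine system was examined through 10 genes, taken by gene symbol from the 18901 genes that the authors deposited. They comprised 6 ligands (Il6, Osm, Lif, Il11, Clcf1 and Ctf1), the shared signal transducer Il6st and 3 receptors (Osmr, Lifr and Il6ra), and every member was present in the table. The samples were BNP-injected cheek skin of 2 genotypes, each with 4 mice. TBX20fl/fl;K14-Cre animals, called knockout mice here, carry a Cre under the K14 promoter that removes exons 2 and 3 of Tbx20 in keratinocytes, and their TBX20fl/fl littermates, called control mice, carry the same floxed alleles without Cre. All mice were 7-week-old females of C57BL/6 background. Each had received 10 µg of BNP, B-type natriuretic peptide, by intradermal injection into the cheek and was killed 5 h after its behaviour had been filmed for 30 min, so both groups had been given BNP and no vehicle-injected skin was analysed here. The comparison therefore addresses whether transcripts of this cytokine system differ with keratinocyte TBX20 in BNP-injected skin.

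IL-6-type cytokines act through gp130, the protein encoded by Il6st, together with a receptor that gives each ligand its specificity. IL-6 binds the IL-6 receptor first and then gp130, whereas oncostatin M joins gp130 to the oncostatin M receptor and LIF joins it to the LIF receptor. The bound receptors activate JAK kinases and STAT3, whose target Socs3 feeds back on gp130, and in skin the oncostatin M receptor also pairs with the IL-31 receptor, a known route of itch.

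The estimated counts summed to between 16056282 and 19880654 per mouse, at which 3 counts amount to 0.151 to 0.187 CPM, the count scaled to library size. These limits cover counting error only. The Tbx20 count was at most 2 per knockout mouse and at most 3 per control mouse, too few for the deletion to be seen in whole skin or for the labels to be checked by it. Keratinocyte markers were present in every mouse, with a summed FPKM (a read level scaled to library size and transcript length) of 2951 to 3770 in knockout mice and 2562 to 3854 in control mice. Skeletal muscle markers summed to 8848 to 14622 and to 11665 to 16995, respectively, so the tissue also held muscle. Control mouse 2 stood apart, with a TMM scaling factor of 0.735 against 1.01 to 1.07 in the other 7 mice, and short transcripts were high and long transcripts low in it. Values without this mouse are therefore given beside many of the results. Across 17124 genes, the quasi-likelihood test of edgeR, adjusted by the Benjamini-Hochberg method, called 0%, with a smallest adjusted p-value of 0.498, so none of the 10 members passed the threshold of 0.05. At an unadjusted p under 0.05, 5.91% of all genes were lower and 2.45% were higher in knockout mice. DESeq2, run as an alternative, called 10 genes, none of them a member.

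Il6 and Osm were the members with the largest differences, and both had lower levels in knockout mice. They were also the only members of the 10 with an unadjusted p under 0.05 in edgeR's test, 2 lower and 0 higher. Because the samples were whole skin, fewer cells of a type and less RNA per cell cannot be told apart for any of these values.

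Il6 encodes interleukin-6, the founding ligand of the family, on chromosome 5 at 30013114 to 30019975 of GRCm38 on the forward strand. The promoter sequences of RefSeq (GRCm38.p6) covered 8 members, and the 250 bases before the start were searched on both strands for letters resembling NF-kB (GGGNNTTTC), C/EBP (TTGCNNAA), AP-1 (TGANTCA) and STAT (TTCNNNGAA) motifs and for the T-box element, to which T-box factors such as TBX20 bind, in a pair of forms that share most of their letters (GGTGTGA and AGGTGTG). Matches to different motifs did not overlap in any of these 8 members. Il6 is shown because it differed most between the genotypes, and Lif and Il11 as ligands whose levels overlapped broadly, with capitals marking the matches.
Il6, chr5:30012864-30013113, forward strand: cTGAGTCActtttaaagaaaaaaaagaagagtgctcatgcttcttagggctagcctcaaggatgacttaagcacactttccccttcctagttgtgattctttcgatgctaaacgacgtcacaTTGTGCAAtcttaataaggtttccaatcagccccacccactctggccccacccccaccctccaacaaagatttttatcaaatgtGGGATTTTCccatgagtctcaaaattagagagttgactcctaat
Lif, chr11:4257318-4257567, forward strand: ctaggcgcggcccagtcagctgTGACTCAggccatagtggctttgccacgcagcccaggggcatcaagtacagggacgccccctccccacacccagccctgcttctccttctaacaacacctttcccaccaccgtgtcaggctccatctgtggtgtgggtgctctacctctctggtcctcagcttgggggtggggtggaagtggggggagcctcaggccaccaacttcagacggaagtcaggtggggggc
Il11, chr7:4778142-4778391, reverse strand: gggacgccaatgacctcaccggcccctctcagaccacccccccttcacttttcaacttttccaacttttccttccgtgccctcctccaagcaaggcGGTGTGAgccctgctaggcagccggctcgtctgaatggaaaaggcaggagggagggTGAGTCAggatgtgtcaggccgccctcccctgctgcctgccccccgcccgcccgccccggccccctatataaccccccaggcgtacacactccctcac
In Il6, counting the base just before the start as -1, the matches were AP-1 at -249 to -243, C/EBP at -128 to -121 and NF-kB at -44 to -36. Lif held AP-1 letters at -228 to -222. Il11 held the GGTGTGA form of the T-box element at -154 to -148 and AP-1 letters at -98 to -92, while its other annotated start had none of the motifs. Il6ra held the AGGTGTG form at -191 to -185. None of the letters searched were in this window of Ctf1, Il6st, Osmr or Lifr, and the STAT letters were found in none of the 8 members searched. Osm and Clcf1 had no promoter sequence and were not searched. Among 32851 promoters of the same length, 3.72% held the NF-kB letters, 9.56% C/EBP, 6.75% AP-1, 7.02% STAT, 3.33% GGTGTGA and 5.1% AGGTGTG. The AGGTGTG form was added after the first search. A match describes letters only, and binding was not measured here.

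The FPKM of Il6 was 1.99, 3.24, 1.72 and 5.11 in knockout mice 1 to 4 and 7.05, 20.96, 7.39 and 3.64 in control mice 1 to 4. The groups overlapped, because knockout mouse 4 lay above control mouse 4, and control mouse 2 was the highest of all. These levels rested on 37 to 111 counts and 76 to 367 counts, respectively. The group means were 3.02 ± 1.55 (SD, n = 4) and 9.76 ± 7.66 (SD, n = 4). In edgeR's test the log2 fold change was -2.01 (SE 0.64, 95% interval -3.45 to -0.56), a 4.02-fold lower level with an unadjusted p of 0.0117 and an adjusted p of 0.498. Without control mouse 2 it was -1.05 (SE 0.40, unadjusted p = 0.0274, adjusted p = 0.638). Removing a trend with transcript length from each mouse gave -1.36 (unadjusted p = 0.015, adjusted p = 0.536), and the Il6 transcript, at 1092 bases, was shorter than most, in the 9.18th percentile of all genes. With both changes it was -0.89 (unadjusted p = 0.0519, adjusted p = 0.777). The difference in mean FPKM had p = 0.0571 in a two-sided exact permutation test over the mice, where the smallest possible p is 0.0286, and limma on log2(FPKM + 1) gave -1.26 (SE 0.45, adjusted p = 0.457). With mice matched by replicate number, Il6 was lower in the knockout mouse of 3 of 4 pairs.

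Osm encodes oncostatin M, a ligand made mainly by leukocytes, on chromosome 11 at 4236785 to 4241026 on the forward strand. Its FPKM was 0.73, 1.14, 0.82 and 1.61 in knockout mice 1 to 4 and 1.92, 4.29, 1.45 and 2.53 in control mice 1 to 4. Here too the groups overlapped by a single pair of mice, with knockout mouse 4 above control mouse 3. The counts were low, at 26 to 59 and 51 to 128, respectively. Group means were 1.08 ± 0.40 (SD, n = 4) and 2.55 ± 1.24 (SD, n = 4). By edgeR's test the log2 fold change was -1.50 (SE 0.46, 95% interval -2.53 to -0.46), a 2.83-fold lower level with an unadjusted p of 0.00945 and an adjusted p of 0.498. Leaving out control mouse 2 gave -0.92 (SE 0.30, unadjusted p = 0.0155, adjusted p = 0.638), and -0.87 with the length trend also removed (unadjusted p = 0.0229, adjusted p = 0.777). The two-sided exact permutation test of its FPKM gave p = 0.0571, and limma gave -0.73 on the log2(FPKM + 1) scale (SE 0.24, adjusted p = 0.457). Osm was lower in the knockout mouse of 4 of 4 pairs, the only member of the 10 with that pattern. No share of all genes with that pattern is given, so it cannot be set against a background.

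**Figure D1:**
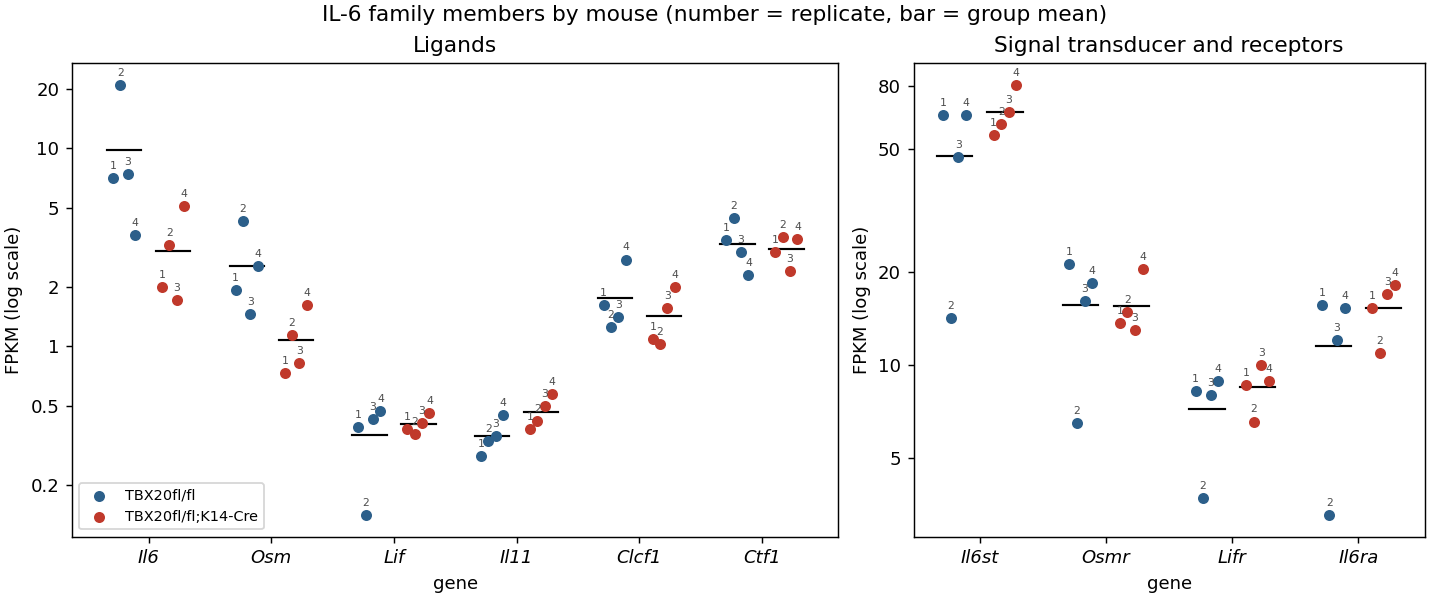
FPKM (log scale) of each member in every mouse, with control mice in blue, knockout mice in red, the replicate number above each point and a bar at the group mean. Il6 and Osm sit lower in knockout mice with a slight overlap, while control mouse 2 is lowest for Lif and for all 4 genes of the right panel.

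The remaining ligands showed no such separation. Lif encodes leukaemia inhibitory factor and lies next to Osm on chromosome 11, at 4257568 to 4272514 on the forward strand, 16541 bases beyond its end. Lif FPKM ranged from 0.36 to 0.46 in knockout mice and from 0.14 to 0.47 in control mice, with control mouse 2 at 0.14 and the other 7 mice between 0.36 and 0.47. Its log2 fold change in edgeR's test was 0.06 (SE 0.29, 95% interval -0.60 to 0.71), against -1.50 for its neighbour Osm. The difference between these neighbours was not tested.

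Il11 encodes interleukin-11 and lies on chromosome 7 at 4772373 to 4782907 on the reverse strand. It had only 10 to 23 counts per mouse, and its FPKM was 0.38 to 0.57 in knockout mice and 0.28 to 0.45 in control mice. Its FPKM was the higher in the knockout mouse of every pair, a pattern for which no share of all genes is given either. Its log2 fold change of 0.28 (SE 0.30, 95% interval -0.40 to 0.95) had an unadjusted p of 0.38 in edgeR's test. Clcf1 encodes cardiotrophin-like cytokine factor 1, a further ligand that signals through gp130. Its FPKM was 1.03 to 1.98 against 1.25 to 2.74, with a log2 fold change of -0.45 (SE 0.29, 95% interval -1.11 to 0.21). Ctf1 encodes cardiotrophin-1, a LIF receptor ligand. Its FPKM was 2.40 to 3.55 against 2.28 to 4.43, with a log2 fold change of -0.30 (SE 0.31, 95% interval -0.99 to 0.40). RefSeq places Clcf1 on chromosome 19 at 4214238 to 4223505, while the deposited table lists it on an unplaced scaffold with a span that does not match, so its deposited position was not used. In the reference transcripts, 6.77% of the 50-base stretches of Clcf1, 3.13% of those of Il11, 2.29% of those of Il6ra and 2.04% of those of Ctf1 also occurred in transcripts of other genes, and their counts are uncertain to that extent. Osmr and Lifr shared under 1%, and Il6, Osm, Lif and Il6st shared none.

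Taking all 6 ligands, their summed FPKM was 7.56, 9.74, 7.40 and 13.2 in knockout mice 1 to 4 and 14.69, 31.40, 14.01 and 12.11 in control mice 1 to 4. The sums overlapped by knockout mouse 4 and control mouse 4. Il6 made up 30.4% ± 7.0 (SD, n = 4) of this sum in knockout mice and 49.4% ± 15.1 (SD, n = 4) in control mice. Osm made up 11.2% ± 1.1 (SD, n = 4) and 14.5% ± 4.5 (SD, n = 4), respectively. The Il6 shares overlapped, at 23.2% to 38.7% in knockout mice and 30.1% in control mouse 4, and control mouse 2 was highest at 66.8%. These shares were not corrected for transcript length. Ctf1 held the largest share in knockout mice 1, 2 and 3, whereas Il6 did in knockout mouse 4 and in every control mouse.

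The genes of the receiving side were expressed at higher levels than most ligands and did not separate the genotypes. Il6st encodes gp130, the transducer shared by the family, and lies on chromosome 13 at 112464070 to 112506860 on the forward strand. Its FPKM was 55.3, 60.3, 65.8 and 80.6 in knockout mice 1 to 4 and 64.4, 14.1, 47.0 and 64.3 in control mice 1 to 4. Control mouse 2 was far below the rest, and the other 3 control mice lay among or below the knockout mice. The log2 fold change in edgeR's test was 0.38 (SE 0.33, 95% interval -0.37 to 1.12), and 0.12 (SE 0.16) without control mouse 2.

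Osmr encodes the oncostatin M receptor, on chromosome 15 at 6813568 to 6874968. The FPKM was 13.6, 14.8, 13.0 and 20.5 in knockout mice 1 to 4 and 21.2, 6.50, 16.1 and 18.4 in control mice 1 to 4. Knockout mice 1, 2 and 3 lay below control mice 1, 3 and 4, while control mouse 2 was the lowest of all. In edgeR's test its log2 fold change was -0.12 (SE 0.26, 95% interval -0.70 to 0.46, unadjusted p = 0.661), whereas limma on log2(FPKM + 1) gave the opposite sign, 0.08 (SE 0.32). With the length trend removed it was -0.34 (SE 0.15, unadjusted p = 0.0443, adjusted p = 0.536), and without control mouse 2 it was -0.31 (SE 0.16, unadjusted p = 0.0888). Both changes together gave -0.39 (unadjusted p = 0.0303, adjusted p = 0.777) in edgeR's test.

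Lifr encodes the LIF receptor and also lies on chromosome 15, at 7090610 to 7197489, 215641 bases beyond Osmr. Its FPKM was 8.60, 6.55, 10.0 and 8.84 in knockout mice 1 to 4 and 8.20, 3.70, 8.00 and 8.88 in control mice 1 to 4. Apart from the low value of control mouse 2, the groups covered much the same range, and the log2 fold change in edgeR's test was 0.17 (SE 0.22, 95% interval -0.32 to 0.65), and 0.00 (SE 0.13) without that mouse. Il6ra encodes the ligand-binding IL-6 receptor, on chromosome 3 at 89869324 to 89913196 in RefSeq. Its FPKM was 15.2, 10.9, 16.9 and 18.1 in knockout mice 1 to 4 and 15.6, 3.26, 12.1 and 15.2 in control mice 1 to 4. Control mouse 2 was again lowest and the groups otherwise overlapped, with a log2 fold change of 0.32 (SE 0.34, 95% interval -0.45 to 1.09), and 0.05 (SE 0.17) without that mouse.

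The balance between the oncostatin M and LIF receptors was compared within each library, as the ratio of Osmr to Lifr FPKM. It ranged from 1.30 to 2.31 in knockout mice and from 1.76 to 2.59 in control mice, so Osmr was the higher in every mouse. On the log2 scale the means were 0.85 ± 0.41 (SD, n = 4) and 1.06 ± 0.23 (SD, n = 4), a difference of -0.21 with p = 0.457 in a two-sided exact permutation test. This value does not show that the ratio was the same.

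By mean FPKM over the 8 mice, the members ranked Il6st (56.5), Osmr (15.5), Il6ra (13.4), Lifr (7.85), Il6 (6.39), Ctf1 (3.19), Osm (1.81), Clcf1 (1.58), Il11 (0.41) and Lif (0.38). Il6st exceeded Osmr, and Clcf1 exceeded Il11, in 8 of 8 mice. Il6ra stood above Lifr, Lifr above Il6 and Ctf1 above Osm in 7 mice each, and Osmr stood above Il6ra in 6. Il6 and Ctf1 did not differ beyond their spread, with Il6 the higher in 5 of 8 mice, and neither did Osm and Clcf1 or Il11 and Lif, each with the higher mean in front in 4 of 8 mice. Within the genotypes, Ctf1 stood above Il6 in 3 of 4 knockout mice and 0 of 4 control mice, and Clcf1 above Osm in 3 of 4 and 1 of 4. In control mice the mean of Il6 (9.76) exceeded that of Lifr (7.20) through control mouse 2 alone, and without it the means were 6.03 and 8.36.

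**Figure D2:**
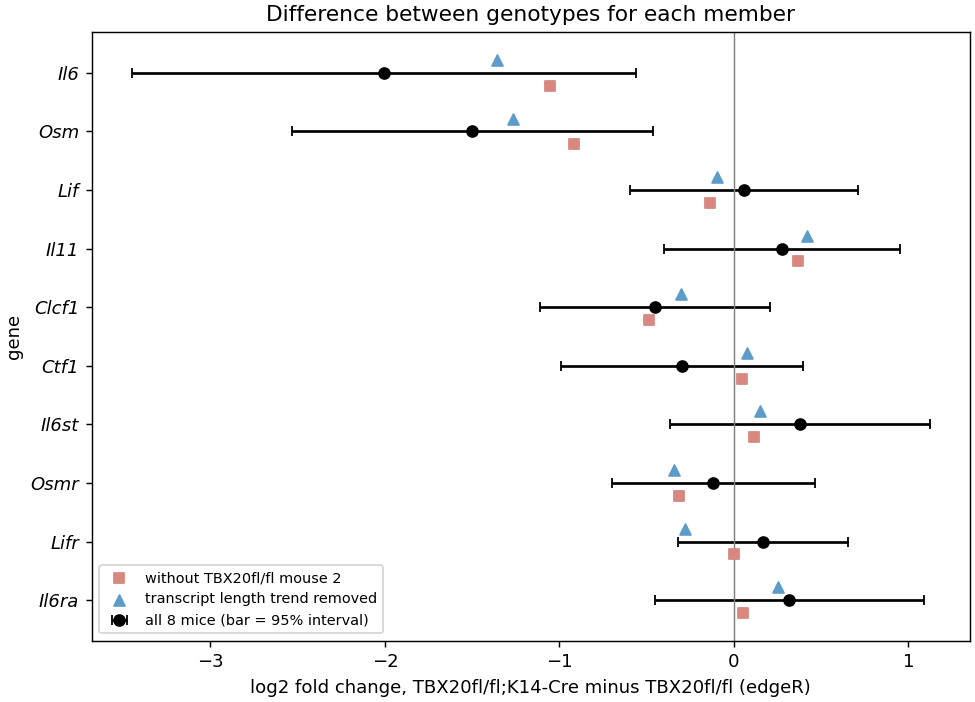
Log2 fold change of each member (knockout minus control, edgeR) with its 95% interval in all 8 mice (black), without control mouse 2 (squares) and with the transcript length trend removed (triangles). The intervals of Il6 and Osm lie below 0 while those of the other 8 members cross it, and the squares of Il6 and Osm move toward 0, to -1.05 and -0.92.

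No member had FPKM values in knockout mice that were all below, or all above, those of control mice. Among 15969 genes whose mean FPKM reached 0.1, 1.92% were wholly lower and 5.45% wholly higher. Leaving out knockout mouse 4 brought the members that were wholly lower to 2, Il6 and Osm, when 3.49% of all genes were. Leaving out control mouse 3 brought them to 1, Osm, beside 2.34% of all genes, and leaving out control mouse 4 to 1, Il6, beside 4.23%.

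Markers of leukocytes were examined beside both ligands, and none was called. No neutrophil marker was at 0, but Ly6g had 2 to 4 counts per knockout mouse, about the limit of 3, and 6 to 9 per control mouse. The log2 fold change was below 0 for 8 of 8 neutrophil markers, and 6 were lower at an unadjusted p under 0.05 in edgeR's test, with a median log2 fold change of -1.54. Their summed FPKM was 109 to 297 in knockout mice and 296 to 979 in control mice. S100a8 and S100a9, which keratinocytes also make, held 74.5% to 92.5% of this sum. The other 6 markers summed to 27.9, 39.6, 34.6 and 56.4 in knockout mice 1 to 4 and 59.4, 84.9, 49.0 and 73.8 in control mice 1 to 4, where knockout mouse 4 lay above control mouse 3. For 8 monocyte and macrophage markers, 4 were lower at that threshold, and the sums were 921 to 1394 and 1122 to 2257, respectively, again with no marker at 0. Lyz2 held 71.2% to 90.6% of these sums and lost the threshold without control mouse 2 (unadjusted p = 0.126 in edgeR's test). The other markers of that list included Cd68 at -0.12 and Adgre1 at -0.04, and 2 of its 8, Csf1r at 0.39 and Mrc1 at 0.23, had log2 fold changes above 0, as did Kit (0.31) among mast cell and Cd4 (0.38) among T cell markers. Without control mouse 2, 7 neutrophil markers and 2 monocyte and macrophage markers were lower at that threshold, when 4.50% of all genes were. Both mice with the highest Osm, control mice 2 and 4, had the highest neutrophil sums, at 942 and 979. Il6 was not high in control mouse 4. All 4 basophil markers, 2 of 5 mast cell markers and 1 of 5 T cell markers were lower at an unadjusted p under 0.05. Of 5 fibroblast markers 2 were higher at that threshold, while 2 had log2 fold changes below 0. Without control mouse 2, 3 of 4 basophil markers and 0 of 5 T cell markers were lower at that threshold in edgeR's test, with Cd200r3 (-0.40, unadjusted p = 0.0764) and Cd3g (-0.39, unadjusted p = 0.114) no longer past it. The basophil gene Mcpt8 was near its limit, at an FPKM of 0 to 0.12 in knockout mice and 0.06 to 0.55 in control mice. None of the keratinocyte, endothelial, skeletal muscle, adipocyte or Schwann cell markers passed that threshold. The part of these cell types in the Il6 and Osm values was not tested.

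**Figure D3:**
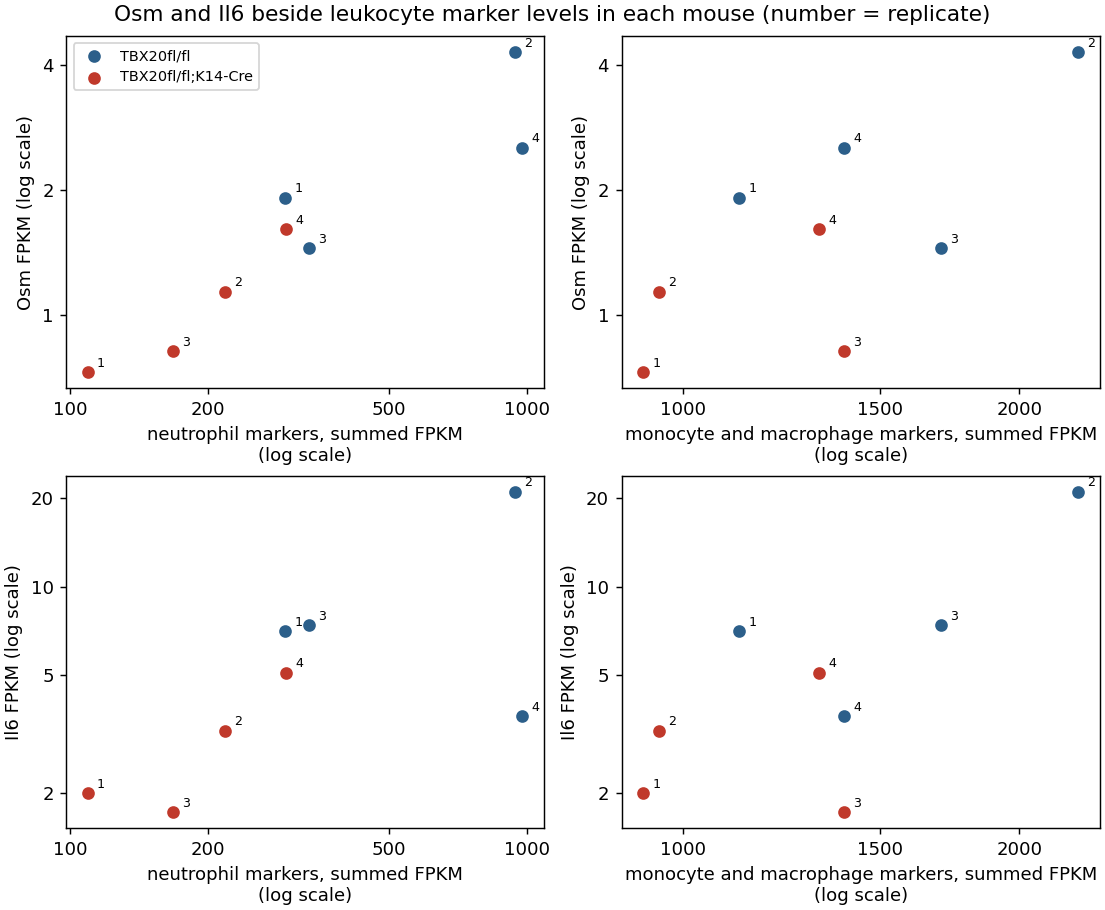
Osm (top) and Il6 (bottom) FPKM in each mouse against the summed FPKM of 8 neutrophil markers (left) and 8 monocyte and macrophage markers (right), all on log scales, with replicate numbers. Knockout mice lie at or below 297 on the neutrophil axis and control mice at or above 296, and control mouse 4 combines a neutrophil sum of 979 with an Il6 FPKM of 3.64.

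The genes whose log2 CPM followed each key member most closely over the 8 mice were taken from 14352 genes whose mean count reached 20, as a description only. Osm was followed by Clec4d, Fpr2 and Il1b (Pearson r 0.979, 0.977 and 0.976), of which Fpr2 encodes a chemotactic receptor of myeloid cells and Il1b interleukin-1 beta. Il6 was followed by Pnp, Isg15 and the chemokine gene Ccl2 (r 0.994, 0.992 and 0.991). For Osmr they were Parp10, Mafk and Clic4 (r 0.954, 0.950 and 0.950), and for Il6st Dock8, Asap2 and Usp42 (r 0.997, 0.996 and 0.996). The points behind each r are the same 8 libraries, control mouse 2 among them. Without that mouse the same genes gave r of 0.968 to 0.981 for Osm, 0.977 to 0.985 for Il6, 0.893 to 0.949 for Osmr and 0.966 to 0.981 for Il6st. The genes were picked for a high r over mice that remain in this set, so these values are no separate check.

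Other ligands and receptors of the gp130 family were examined as a list of 11 genes, of which 9 passed the count filter of at least 10 counts over the 8 mice and Ctf2 and Il31 did not. None was called, 3 were lower and 1 was higher at an unadjusted p under 0.05, and the median log2 fold change was -0.26, beside 0.03 over all genes. With the length trend removed it was -0.03, beside 0.02. The lower genes were Il27, which encodes a subunit of interleukin-27 (-1.41, SE 0.49), Cntf, ciliary neurotrophic factor (-0.85, SE 0.36), and Il11ra2, an IL-11 receptor gene (-0.85, SE 0.29), and the higher gene was Cntfr, the ciliary neurotrophic factor receptor (0.97, SE 0.39). These 4 were named after their values were seen, except Cntfr, which was also among the 3 most abundant of the list. Il27 had only 6 to 8 counts in knockout mice and 7 to 20 in control mice. Its log2 fold change was -0.91 without control mouse 2 and -0.92 with the length trend removed, and that of Il11ra2 was -0.66 and -0.69. Cntf and Cntfr lost that threshold without control mouse 2, at -0.42 and 0.77 in edgeR's test (unadjusted p = 0.106 and 0.0687), and in the fit blocked on replicate number, at -0.72 and 0.87 (unadjusted p = 0.093 and 0.101). Cntfr rested on knockout mouse 2, whose FPKM was 9.85 beside 3.32 to 4.20 in the other 3 knockout mice, and without that mouse it was 0.51 (SE 0.30, unadjusted p = 0.13 in edgeR's test). Il11ra1, which encodes the IL-11 receptor and was the most abundant of the list, had an FPKM of 67.3 to 145.0 against 68.5 to 87.1 and a log2 fold change of 0.03 (SE 0.25). Knockout mouse 2 held the value of 145.0, and without that mouse the log2 fold change was -0.28 in edgeR's test. Il31ra, the partner of Osmr in the IL-31 receptor, had an FPKM of 1.59, 1.59, 1.49 and 2.27 in knockout mice 1 to 4 and 1.79, 0.60, 1.63 and 1.54 in control mice 1 to 4. Control mouse 2 was the lowest and the other values overlapped, with a log2 fold change of 0.23 (SE 0.27), and 0.04 without control mouse 2. Its ligand Il31 had 0 counts in every knockout mouse and 0 to 3 in control mice, at or under the limit of 3 counts.

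Of 17 genes for the kinases, STATs and regulators that act below gp130, none was called and 1 was lower at an unadjusted p under 0.05. Of all genes 5.91% were lower at that threshold, so 1 of 17 is near the share of all genes. The median log2 fold change was 0.08, and it was -0.03 without control mouse 2 and -0.12 with the length trend removed. The lower gene was Socs3, the feedback inhibitor of gp130. Socs3 FPKM was 13.7, 20.2, 10.3 and 27.0 in knockout mice 1 to 4 and 35.6, 20.9, 21.8 and 23.2 in control mice 1 to 4. The groups overlapped through knockout mouse 4, and the log2 fold change in edgeR's test was -0.67 (SE 0.29, unadjusted p = 0.0469, adjusted p = 0.498). Leaving out control mouse 1 raised its unadjusted p to 0.128, and leaving out control mouse 2 gave -0.65 with an unadjusted p of 0.0663 in edgeR's test. Jak1, a kinase bound to gp130, had 0.13 (SE 0.19), and Stat3, the main transcription factor of the pathway, had 0.06 (SE 0.27). Without control mouse 2 they had -0.01 and -0.15. Gab1, named after its value was seen, was the only gene of the 17 whose groups did not overlap. Its FPKM was higher in knockout mice (10.68 to 11.80) than in control mice (3.49 to 10.39), where 5.45% of all genes were wholly higher.

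Among 15 genes that IL-6-type cytokines are known to induce, none was called, 4 were lower and 0 were higher at an unadjusted p under 0.05, and the median log2 fold change was -0.33. Genes that the study names from these data were left out of this list. The 4 were Ccl2, a monocyte chemokine (-1.47, SE 0.49), Timp1, a metalloproteinase inhibitor (-1.36, SE 0.37), Cebpd, a transcription factor (-0.73, SE 0.31), and Lrg1, a secreted glycoprotein (-0.70, SE 0.21). All of them but Ccl2, and Lbp, which encodes a lipopolysaccharide-binding protein, were named after their values were seen. Without control mouse 2 the count was 5, with Serpina3n and Lbp in and Cebpd out (-0.46), and the value of Ccl2 was -0.80. In that fit 4.50% of all genes were lower at the threshold. With the length trend removed, Lrg1 lost that threshold (-0.48, unadjusted p = 0.153) and Mcl1 passed it (-0.32, unadjusted p = 0.0284) in edgeR's test. Serpina3n, an acute-phase protease inhibitor, had -0.63 (SE 0.31), and -0.25 (unadjusted p = 0.288 in edgeR's test) without control mouse 4, the highest at an FPKM of 271.3, and Mcl1, a survival factor, had -0.18 (SE 0.14). Ccl2 is also expressed by leukocytes, whose marker levels are given above.

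Keratinocyte genes known to rise or fall on exposure to oncostatin M were examined as 5 genes each. None was called. All 5 genes of the rising list were lower at an unadjusted p under 0.05, with a median log2 fold change of -2.09. That median was -0.50 without control mouse 4 and -1.35 with the length trend removed. S100a8 and S100a9, which encode the calprotectin subunits, had -2.10 (SE 0.55) and -2.09 (SE 0.56), and -1.33 and -1.35 with the length trend removed, and both also belong to the neutrophil list. S100a9 FPKM was 42.4, 88.9, 69.96 and 131.1 in knockout mice 1 to 4 and 132.0, 458.5, 137.4 and 457.4 in control mice 1 to 4, so its groups lay narrowly apart. It was the only gene of the 5 whose groups did not overlap, and S100a8 in knockout mouse 4 (FPKM 109.55) exceeded that in control mouse 1 (104.24). Of all genes, 1.92% were wholly lower in knockout mice. Krt6a, a keratin of stressed epidermis, had -1.27 (SE 0.56), with an FPKM of 36.7 to 70.6 in knockout mice and 63.9, 53.5, 52.7 and 327.3 in control mice 1 to 4. A single mouse, control mouse 4, thus held the high keratin values. Without it Krt6a, Krt6b and Krt16 had -0.26, -0.37 and -0.50 in edgeR's test (unadjusted p = 0.298, 0.539 and 0.368), and 2 of 5 genes, S100a8 and S100a9, remained under the threshold. In the fit blocked on replicate number, where 6.54% of all genes were lower at the threshold, the count was 4, without Krt6a (-0.85, unadjusted p = 0.0802 in edgeR's test). With the length trend removed neither Krt6a nor Krt16 passed (unadjusted p = 0.0601 and 0.0672 in edgeR's test). Of the falling list, 4 of 5 genes did not pass the unadjusted threshold, with Krt10 at 0.05 (SE 0.22), Lor at 0.05 (SE 0.18), Krt1 at 0.09 (SE 0.21) and Ivl, named after its value was seen, at -0.28 (SE 0.19), all of them products of differentiating epidermis. Flg, which encodes filaggrin and was named after its value was seen, was higher at 0.88 (SE 0.36, unadjusted p = 0.0344 in edgeR's test), and at 0.63 without control mouse 2. It lost that threshold without control mouse 3 (0.76, unadjusted p = 0.091 in edgeR's test) and with the length trend removed (0.39, unadjusted p = 0.0739). Its FPKM in knockout mice (9.53 to 13.57) lay wholly above that in control mice (1.89 to 9.09), as did that of 5.45% of all genes.

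**Figure D4:**
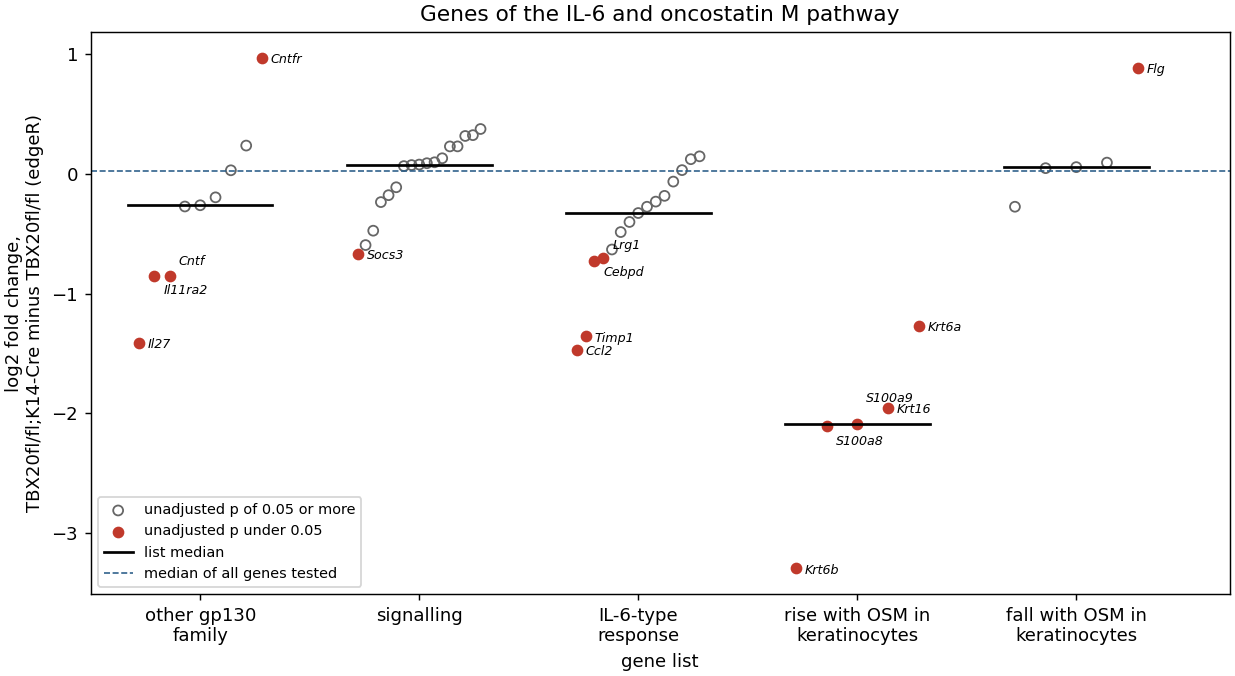
Log2 fold change of each tested gene (knockout minus control, edgeR) in 5 pathway lists, with the list median as a bar, the median of all genes tested as a dashed line and genes with an unadjusted p under 0.05 filled and named. The list of keratinocyte genes that rise with oncostatin M lies lowest, at a median of -2.09. That median was -0.50 without control mouse 4 and -1.35 with the length trend removed, and S100a8 and S100a9 are also neutrophil markers. The signalling list lies at 0.08, a sign that turned to -0.03 without control mouse 2 and -0.12 with the length trend removed.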

How the data were processed

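A library per mouse, 4 of each genotype, was sequenced as single-end 50-base reads. Read filtering by the authors used SOAPnuke (with -l of 15, -q of 0.2 and -n of 0.05) and alignment used HISAT. The deposited table gives estimated counts (expected counts, not normalized; 69.0% of those above 0 are not whole) from a program not given in the sources used here, FPKM values from the authors' Dr. Tom platform, TPM values, and a normalized signal, the authors' counts divided by a size factor, which was not used. The authors also deposited 40 columns of means and the log2 fold changes, p-values and q-values of 17 comparisons, none of which was used. Totals were 16056282 to 19880654 counts per mouse.

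Counts were rounded, genes below 10 counts in all 8 mice together were dropped, and genotypes were compared with TMM scaling and the quasi-likelihood test of edgeR 4.0.16 (R 4.3.3). A standard error (SE) is the fitted log2 fold change over the root of its F statistic. Benjamini-Hochberg adjustment covered all genes tested, with a threshold of 0.05. FPKM was compared with limma 3.58.1 on log2(FPKM + 1), a scale that understates changes of low genes, in 15969 genes with a mean of at least 0.1, and by two-sided exact permutation tests over the mice. Each mouse is a separate animal and library. Transcript length was computed from the ratio of deposited counts to FPKM, and its trend was fitted where the mean count reached 50. Alternatives were DESeq2 1.42.0, other scalings and filters, the length trend, the replicate number as a block, each mouse left out, and, chosen after seeing the data, TPM, the ratio on length-corrected CPM, the length trend without control mouse 2 the pathway lists without control mouse 4 and under the block, the AGGTGTG letters and the neutrophil sum without S100a8 and S100a9. Same-numbered mice deviated together over genes, with r of 0.323, 0.275, 0.176 and 0.108 against a mean of -0.0672 for other numbers. The pairing comes from the numbers in the labels alone, as the mice are different animals.

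Named were all members, the 3 genes of highest mean FPKM in each pathway list, Il31ra, Jak1, Stat3 and Socs3, and the 3 genes most like Osm, Il6, Osmr and Il6st. Some genes that this rule names are not reported here. The members and lists were chosen with earlier results of these data known. The edgeR, DESeq2 and limma fits were tested on simulated counts. The deposited strand of Osmr and Il6ra, and the deposited end of Il6ra, differ from RefSeq and are not given, and whether counting used strand is not stated.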

Additional observations from a re-analysis of the deposited data

Results flagged for a closer look

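Lifr in control mouse 2 had an FPKM of 3.70, far from the other 3 control mice at 8.00 to 8.88, with a gap of 0.830 of the group's range. It was the only such value among 22 groups of 4 mice examined, where 1.1 would be expected by chance.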

How the results depend on the processing

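No alternative fitted with edgeR called any gene, while DESeq2's test called 10, where the adjusted p was 0.127 for Il6 and 0.160 for Osm. Over the alternatives fitted with edgeR, the adjusted p of Il6 and of Osm ranged from 0.353 to 0.777. Leaving out each mouse gave log2 fold changes of -2.37 to -1.05 for Il6 and -1.75 to -0.92 for Osm. For Clcf1 they were -0.65 to -0.21 and for Il11 0.13 to 0.38. Il6, Osm, Il11, Clcf1, Il6st and Il6ra kept their direction under every alternative of edgeR's and limma's tests. Signs turned for 4 members, of which Osmr alone passed the unadjusted threshold under any alternative, with the length trend removed. With the length trend removed Lif was -0.095, Ctf1 0.073 and Lifr -0.28, without control mouse 2 Lif was -0.14 and Ctf1 0.047, and with both changes Lif was -0.19, Ctf1 0.16 and Lifr -0.15, while Osmr was 0.037 without control mouse 1. Leaving out each mouse spanned -0.14 to 0.18 for Lif, -0.47 to 0.047 for Ctf1 and -0.31 to 0.037 for Osmr in edgeR's test. In limma's test it spanned -0.028 to 0.094 for Lif, -0.17 to 0.073 for Ctf1, with 0.039 without knockout mouse 3, and -0.26 to 0.26 for Osmr, with -0.054 without knockout mouse 4. The cause was not tested. The number of members with an unadjusted p under 0.05 in limma's test was 1 to 2 when each mouse was left out, and the number wholly lower in FPKM was 0 to 2. Counting members lower in every replicate pair gave 1 in place of 0, with no share of all genes given under that rule. The replicate block changed no other call of a member, with 0 genes called after adjustment and Il6 at -1.73 and Osm at -1.36. Among list genes, Krt6a, Cntf, Cntfr, Lyz2 and Cd3g lost the unadjusted threshold under the block, and Ptpn2, Csf3r, Cdh5 and Kdr passed it. The log2 ratio of Osmr to Lifr differed by -0.32 to -0.05 when each mouse was left out. With 26 to 128 counts, Osm was measured less precisely than the receptors.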
